A study of Mus musculus with 10 samples.

Results

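The genes described here were close to silent in mouse embryonic fibroblasts (MEF) and were expressed in a partially reprogrammed line as well as in fully reprogrammed lines. They were chosen by their levels. A gene was taken when its normalised read count was under 20 in both MEF libraries and at least 500 in each of the 8 libraries of pre-iPS and induced pluripotent stem (iPS) cells. Of 18901 genes in the table, 72 met this rule, and 8 of them (Cldn3, Cldn6, Cldn7, Fgf4, Krt17, Tex19.1, Utf1 and Wnt8a) were set aside by name as claudins, keratins, Wnt or Tex genes or established pluripotency markers, which left 64. The difference between MEF and the other lines chose these genes, so it is given as a description and was not tested. Differences between pre-iPS and iPS cells, between iPS lines and between passages did not enter the rule directly. The floor of 500 still left out genes with a low value in any of the 8 libraries, which limits how large such differences can be.

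All cells came from Oct4-GFP MEF of a cross of the mf1 and 129 strains. MEF were grown in DMEM with 10% FCS and sampled at passages 2 and 4. The 4 other lines had received Oct4, Sox2, Klf4 and c-Myc by retrovirus, were grown in KSR medium with LIF, and were sampled at passages 5 and 25. They comprised 1 line of pre-iPS cells, 1 'control' iPS line derived without added Netrin-1, and 'rNetrin-1-derived' iPS clones 1 and 2, derived in the presence of the secreted guidance cue Netrin-1 as a recombinant protein. The study classed the pre-iPS line as incompletely reprogrammed because its Oct4/GFP reporter stayed off and its viral factors stayed on. Pre-iPS and control cells are 1 line each. A p-value between lines below rests on the spread between the 2 libraries (passages) within each line, MEF included. It does not measure the spread between independently derived clones.

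Reprogramming by these transcription factors begins with loss of the fibroblast programme and a mesenchymal-to-epithelial transition, in which cells gain junctions, apical and basolateral membrane domains and epithelial surface proteins. Activation of the endogenous pluripotency network comes later, and partially reprogrammed lines are arrested between these stages. Genes that are off in fibroblasts can therefore belong to the epithelial programme, to the pluripotency and germline programmes, or to neither.

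The libraries held 38110410 to 52946856 reads on genes, so 1 read was worth 0.888 to 1.18 units of the normalised count. The fibroblast markers (14 genes such as Col1a1 and Thy1) summed to 3180310 and 3332610 in MEF, and to 26752 to 52489 in the 8 other libraries, which is 0.821 to 1.61% of the MEF mean. The pluripotency factor Nanog stood at 34.5 and 36.9 (MEF), 311 and 349 (pre-iPS) and 2489 to 7441 (the 6 iPS libraries), and Esrrb at 31.6 and 15.4 (pre-iPS) against 900.2 to 7387. Not every such marker was low in pre-iPS cells. Zfp42 stood at 47.6 and 51.7 (MEF), 6512 and 6101 (pre-iPS) and 2109 to 15153 (iPS). Of 8 pluripotent cell markers 5 were lower in pre-iPS than in iPS cells and 1 was higher, past the thresholds given below. Pou5f1 (Oct4) was 392944 and 415437 in pre-iPS cells and 91002 to 110018 in iPS cells, where reads of the retroviral and of the endogenous gene cannot be told apart in these values. The same limit holds for Sox2, at 18529 and 21950.5 in pre-iPS cells and 8304 to 14832 in iPS cells. Macrophage markers summed to 13706 and 13796 in MEF and to 566 to 1899 in the other libraries, and 4 of their 8 genes, C1qa, C1qb, C1qc and Ptprc, were under 10 in all 8. Their part in the results below was not tested.

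In MEF the 64 genes had 1 to 17 reads at passage 2 and 2 to 18 reads at passage 4. Their mean value was 2.21 to 17.9 in MEF, with a median of 9.54. In pre-iPS cells the means were 579 to 9359, with a median of 1938, and over the 6 iPS libraries they were 641 to 5944, with a median of 1503. These levels are what the rule selected. At its edges, Ckmt1 (19.96), Mapt (19.91) and Oasl1 (18.9) had the highest MEF values inside the limit, and Gng3 (20.001), Ryr1 (20.004) and Slain1 (20.05) lay just outside. Klk11 (505), Map7d2 (511) and Kit (512) had the lowest single values above 500, and Cyp4f39 (496), Aldh3b2 (487) and Ocln (482) fell short in 1 library or more. Without the requirement on pre-iPS cells 108 genes would have qualified, and without the requirement on iPS cells 151.

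**Figure D1:**
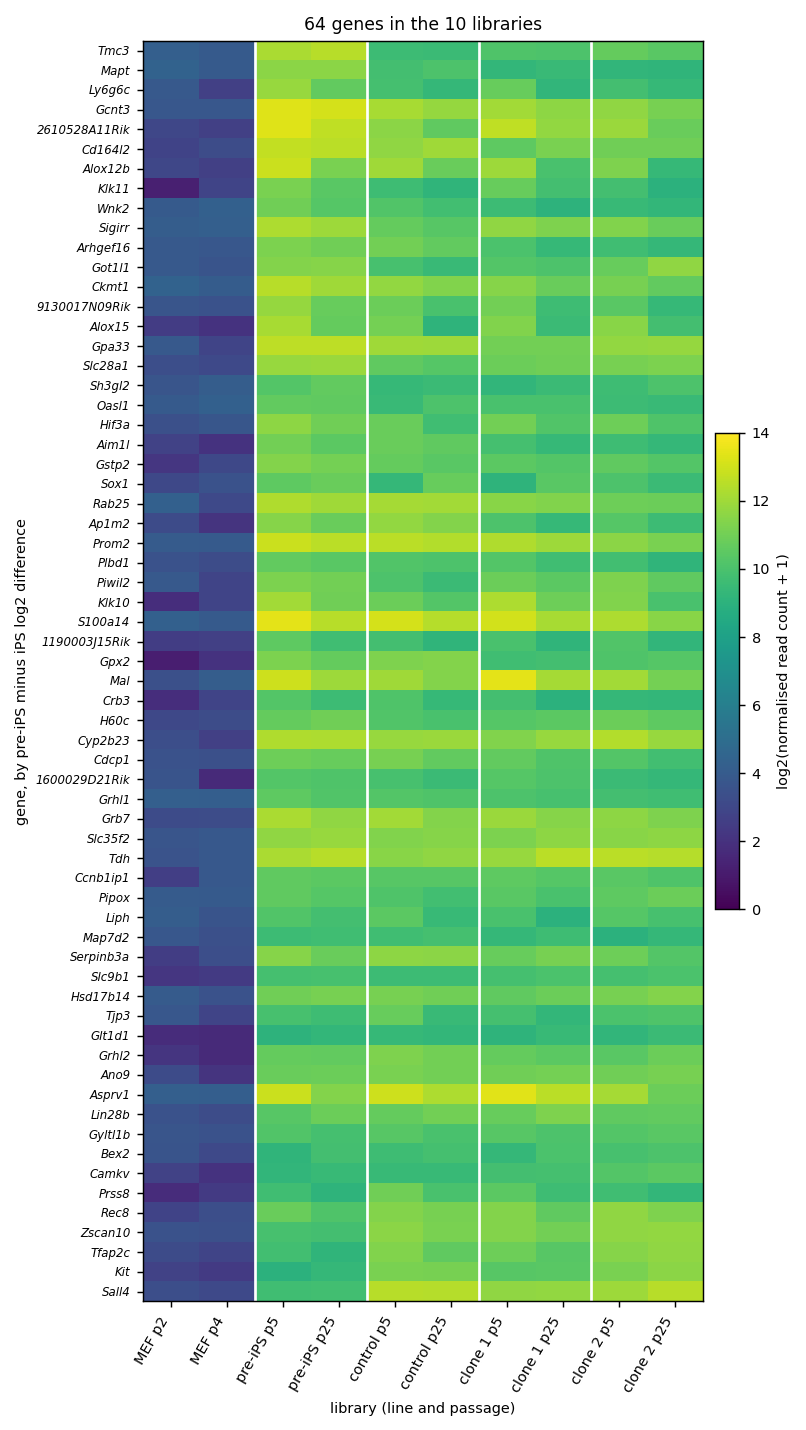
Levels of the 64 genes (rows) in the 10 libraries (columns), as log2 of the normalised read count plus 1, with rows ordered by the log2 difference between pre-iPS and iPS cells. Both MEF columns are dark for every gene because the rule required it, the genes at the top are brightest in the pre-iPS columns, and Sall4, Kit, Tfap2c and Zscan10 at the bottom are dimmer there than in the iPS columns.

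Per kilobase of exon, the scale on which genes can be compared, the mean level over the 8 libraries was 116 to 5573 with a median of 573. The 8 highest were 2610528A11Rik (5573), which encodes a secreted ligand of the receptor GPR15, S100a14 (3741), a calcium-binding protein of epithelia, Asprv1 (3712), a retroviral-like aspartic protease of the epidermis, Rab25 (2036), a small GTPase of the apical recycling endosome, Cd164l2 (1905), a sialomucin-like membrane protein, Cyp2b23 (1885), a cytochrome P450, Mal (1823), a proteolipid of apical membranes, and Tdh (1813), the threonine dehydrogenase on which mouse embryonic stem cells rely. The genes lay on 18 autosomes and the X chromosome, 11 of them on chromosome 7, and 3 pairs were neighbours within 100 kb: Klk10 with Klk11, Ano9 with Sigirr, and Mal with Prom2. Over the 8 libraries the highest value exceeded the lowest 1.30 to 11.03 times, with a median of 3.004. For 5 genes (Ano9, Ccnb1ip1, Glt1d1, Gyltl1b and Slc9b1) this range was under 1.5-fold, and for 13, among them Alox15, Alox12b, Mal, Asprv1, Sall4 and Kit, it was over 5-fold.

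Promoter windows of 300 bases, from 250 before to 50 after the RefSeq transcription start on GRCm38.p6, were found for 46 of the 64 genes and for 27025 genes in all. The letters of 7 motifs were searched on both strands. The octamer ATGCAAAT, the recognition sequence of Oct4 and other POU factors, stood in 4 of 46 windows (8.70%) and in 1.75% of all windows. The letters GGGTGTG, a KLF-type element, stood in 8 of 46 (17.4%) and in 7.85% of all. CATTGTT, a SOX-type element, was in 0 of 46 windows and in 3.87% of all. The shares for the E-box CACGTG (6.52% against 7.24%), CCAAT (43.5% against 37.9%), the GC box GGGCGG (39.1% against 35.9%) and TATAAA (13.0% against 14.2%) differed less. These are matches of letters and not shown to be bound. The 4 windows with the octamer are printed below because Oct4 was one of the factors delivered, with the match in capitals, each 5′ to 3′ on the strand of its gene. Their genes are 1600029D21Rik (Plet1, a surface protein of epithelial and placental progenitors), Liph (a membrane-associated phospholipase), Pipox (a peroxisomal oxidase) and Sox1 (a transcription factor of neural progenitors). The match began 73, 87 and 195 bases before the start in the first 3 and 19 bases after it in Sox1, and reads as the reverse complement in 1600029D21Rik and Pipox.
1600029D21Rik, chr9:50494275-50494574, plus strand: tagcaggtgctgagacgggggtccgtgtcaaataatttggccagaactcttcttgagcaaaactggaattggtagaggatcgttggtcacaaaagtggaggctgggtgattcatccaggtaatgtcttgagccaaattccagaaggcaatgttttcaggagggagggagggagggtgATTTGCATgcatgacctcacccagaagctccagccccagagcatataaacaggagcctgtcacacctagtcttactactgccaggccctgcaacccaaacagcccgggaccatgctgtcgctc
Liph, chr16:21995493-21995792, minus strand: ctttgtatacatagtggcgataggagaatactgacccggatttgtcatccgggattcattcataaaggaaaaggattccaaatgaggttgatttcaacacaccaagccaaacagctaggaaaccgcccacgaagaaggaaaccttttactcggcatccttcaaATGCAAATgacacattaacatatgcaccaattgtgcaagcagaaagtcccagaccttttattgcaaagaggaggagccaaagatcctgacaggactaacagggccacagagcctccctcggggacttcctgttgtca
Pipox, chr11:77893823-77894122, minus strand: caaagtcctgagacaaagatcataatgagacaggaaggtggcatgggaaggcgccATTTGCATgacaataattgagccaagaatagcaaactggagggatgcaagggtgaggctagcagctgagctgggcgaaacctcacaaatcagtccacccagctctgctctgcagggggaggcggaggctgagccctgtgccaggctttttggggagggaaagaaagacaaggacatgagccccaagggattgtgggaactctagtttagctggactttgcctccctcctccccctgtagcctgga
Sox1, chr8:12395269-12395568, plus strand: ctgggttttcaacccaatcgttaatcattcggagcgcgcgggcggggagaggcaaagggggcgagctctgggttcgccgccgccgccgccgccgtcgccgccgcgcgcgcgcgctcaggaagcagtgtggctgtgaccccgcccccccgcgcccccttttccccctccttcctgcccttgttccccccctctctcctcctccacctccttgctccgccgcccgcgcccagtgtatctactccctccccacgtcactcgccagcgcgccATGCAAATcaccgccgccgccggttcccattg

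1600029D21Rik was 1199 and 1115 for pre-iPS, 974 and 736 for control, 1253 and 1081 for clone 1 and 733 and 631 for clone 2, always with the passage 5 value first. Liph was 1185 and 899 for pre-iPS, 1443 and 690.4 for control, 1016 and 513 for clone 1 and 1256 and 980.3 for clone 2, and Pipox was 1512 and 1284 for pre-iPS, 1152 and 874 for control, 1347 and 998 for clone 1 and 1495 and 1839 for clone 2. For Sox1 the values were 1465 and 1774 for pre-iPS, 635 and 1719 for control, 544 and 1392 for clone 1 and 1094 and 759 for clone 2. In Sox1 the passage 25 library was the higher in every line but clone 2, and none of these 4 genes differed between pre-iPS and iPS cells at an adjusted p under 0.05 (limma, over 17075 genes). With passage as a block 1600029D21Rik did (0.40, limma adjusted p = 0.00751).

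Of the windows with GGGTGTG, those of Alox12b and Hif3a are shown because both genes fell with passage, as described further on. Of the 6 other genes with these letters, Ckmt1, Crb3 and Gstp2 also fell, at limma adjusted p = 0.00567, 0.0386 and 0.0288. Their log2 differences between passages 25 and 5 were -0.51 ± 0.06, -0.56 ± 0.13 and -0.27 ± 0.06. Those of Bex2 (0.42 ± 0.12), Tjp3 (-0.50 ± 0.19) and Tmc3 (-0.01 ± 0.09) did not pass at an adjusted p under 0.05. Falls were common among the 64 genes, 28 of which were lower at passage 25 by adjusted p (43.8%, against 7.63% of all genes). A link between these letters and passage was not tested. Alox12b encodes a lipoxygenase of the epidermal barrier and Hif3a a subunit of the hypoxia-inducible factor family. The match is in capitals and began 177 and 176 bases before the start, as the reverse complement in Alox12b.
Alox12b, chr11:69156822-69157121, plus strand: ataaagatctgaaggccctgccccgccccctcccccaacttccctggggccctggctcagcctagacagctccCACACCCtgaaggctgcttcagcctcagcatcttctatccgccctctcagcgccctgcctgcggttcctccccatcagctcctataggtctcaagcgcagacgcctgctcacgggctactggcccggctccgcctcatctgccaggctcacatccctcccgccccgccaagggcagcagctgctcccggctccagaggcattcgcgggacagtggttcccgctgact
Hif3a, chr7:17062378-17062677, minus strand: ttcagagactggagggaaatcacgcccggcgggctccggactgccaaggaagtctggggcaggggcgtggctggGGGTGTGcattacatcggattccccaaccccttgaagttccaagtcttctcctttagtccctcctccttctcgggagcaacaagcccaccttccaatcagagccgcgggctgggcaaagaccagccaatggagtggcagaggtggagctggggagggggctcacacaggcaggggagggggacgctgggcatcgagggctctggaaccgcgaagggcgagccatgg

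Pre-iPS cells were first compared with the 3 iPS lines to learn which of these genes were at their iPS level in the arrested line. Most of the 64 genes did not differ past the thresholds, and of those that did more were higher than lower. By limma on log2(value + 1), 16 of 64 genes (25.0%) differed at an adjusted p under 0.05 and a log2 fold change of at least 1 either way, against 16.3% of all 17075 genes tested. Of these, 12 were higher in pre-iPS cells (18.8% of the 64, 4.71% of all genes) and 4 were lower (6.25%, 11.6% of all genes). Among the 8807 genes of at least 500 in all 8 libraries, the range from which the rule draws, 1.91% were higher and 1.28% lower. Under quantile normalisation the 2909 calls over all genes divided into 1483 higher and 1426 lower, in place of 804 and 1977, and those of the 64 genes into 13 and 4. The median log2 fold change of the 64 genes was 0.48, that of all genes 0.00 and that of the 8807 genes 0.05, and 49 of the 64 were above 0. These are RNA levels of whole cultures, in which fewer expressing cells and less RNA per cell cannot be told apart.

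**Figure D2:**
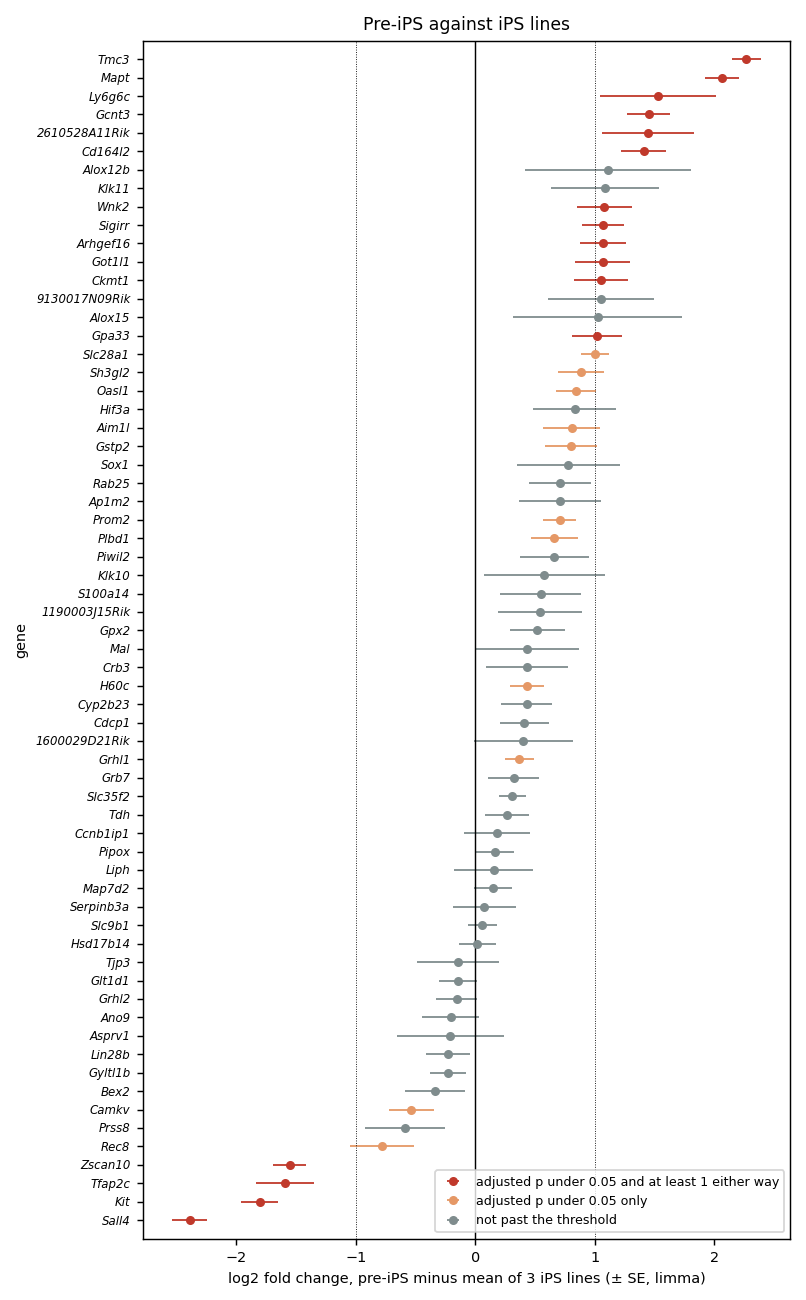
Log2 fold change of pre-iPS cells against the mean of the 3 iPS lines (x axis, points with ± SE from limma) for each of the 64 genes (y axis), coloured by the test, with dotted lines at a log2 fold change of 1 either way. Tmc3 and Mapt stand farthest to the right and Sall4, Kit, Tfap2c and Zscan10 form a separate group of lower genes on the left.

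Tmc3, a member of the transmembrane channel-like family, had the largest fold change of the 12 higher genes. Its value was 4723 and 5792 for pre-iPS, against 769 and 753 for control, 1116 and 1096 for clone 1 and 1661 and 1381 for clone 2, and 17.6 and 14.8 in MEF. Both pre-iPS libraries lay above all 6 iPS libraries, and the log2 fold change was 2.27 ± 0.12 (SE, limma adjusted p = 5.47e-06). Its exons overlap those of the antisense gene Gm16638 over 43.9% of their length, and since the library kit did not keep the strand, reads of the 2 genes cannot be told apart there. Mapt, which encodes the microtubule-associated protein tau, was 3045 and 3013 for pre-iPS, against 892 and 1071 for control, 610.0 and 724 for clone 1 and 592 and 569 for clone 2. The libraries did not overlap here either, and the log2 fold change was 2.07 ± 0.14 (limma adjusted p = 1.90e-05). For both genes an exact two-sided permutation test of 2 against 6 libraries gave p = 0.0357, the smallest it can give in this design. It exchanged single libraries, although those of the same line are not independent, so it does not test a difference between lines.

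The next of the higher genes by fold change were Ly6g6c and Gcnt3. Gcnt3, a glycosyltransferase that branches mucin-type O-glycans, was 10081 and 8636 for pre-iPS, against 4616 and 3499 for control, 4206 and 3171 for clone 1 and 3309 and 2219 for clone 2 (log2 fold change 1.45 ± 0.18, limma adjusted p = 0.00043). Cd164l2 was 6601 and 6075, against 3331 and 4048 for control, 1465 and 2363 for clone 1 and 1979 and 1988 for clone 2 (1.41 ± 0.19, limma adjusted p = 0.000607). Gpa33, an immunoglobulin-family surface antigen of intestinal epithelium, was 6193 and 6322, against 4136 and 4024 for control, 2095 and 2077 for clone 1 and 3376 and 3494 for clone 2 (1.02 ± 0.21, limma adjusted p = 0.00552). For these 3 genes both pre-iPS libraries were above every iPS library. Ly6g6c, a GPI-anchored protein of the Ly6 family, was 3663 and 1619.8 for pre-iPS, against 937 and 641 for control, 1703 and 587 for clone 1 and 916 and 659 for clone 2. Here the libraries overlapped, as passage 5 of clone 1 exceeded passage 25 of pre-iPS cells. The log2 fold change was 1.53 ± 0.48 (limma adjusted p = 0.0356), and it fell to 0.94 (adjusted p = 0.301) without the passage 5 library of pre-iPS cells.

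Signalling genes and enzymes made up the rest. 2610528A11Rik, the ligand gene named above, was 10206 and 6531 for pre-iPS, against 3086 and 1555 for control, 6511 and 3393 for clone 1 and 3871 and 1763 for clone 2 (1.45 ± 0.39, limma adjusted p = 0.018), and the passage 25 value of pre-iPS cells exceeded the passage 5 value of clone 1 by less than 1%. Sigirr, a receptor that restrains interleukin-1 and Toll-like receptor signalling, was 4954 and 3925, against 1670.0 and 1341 for control, 3243 and 2507 for clone 1 and 2642 and 1795 for clone 2 (1.07 ± 0.18, limma adjusted p = 0.00194). Wnk2, a serine/threonine kinase, was 1985 and 1259, against 1157 and 852 for control, 782 and 529 for clone 1 and 701 and 612 for clone 2 (1.08 ± 0.23, limma adjusted p = 0.00659). In all 3 the passage 5 library of pre-iPS cells was the highest of the 8. Arhgef16, a guanine nucleotide exchange factor of small GTPases, Got1l1, an aminotransferase-like gene, and Ckmt1, a mitochondrial creatine kinase, were each higher by a log2 fold change of 1.06 to 1.07 (limma adjusted p = 0.00284, 0.00689 and 0.0066). Without the passage 5 library of pre-iPS cells Ly6g6c, 2610528A11Rik, Wnk2, Sigirr, Arhgef16 and Ckmt1 no longer passed, with log2 fold changes of 0.75 to 1.12. A further 9 genes were higher at an adjusted p under 0.05 with smaller changes, among them Slc28a1 (1.00 ± 0.12), a nucleoside transporter, Sh3gl2 (0.88 ± 0.19), an endophilin, and Grhl1 (0.37 ± 0.12), an epithelial transcription factor. Klk11, a kallikrein-related peptidase, had 1.09 ± 0.45 at an adjusted p of 0.0889, and passed with edgeR (adjusted p = 0.0257) and in 5 other settings.

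The 4 genes that were lower in pre-iPS cells are all regulators known from pluripotent and germ cells. Sall4, a zinc-finger transcription factor required in embryonic stem cells, was 825 and 879.5 for pre-iPS, against 5749.7 and 5531 for control, 3281 and 3412 for clone 1 and 3934 and 5703 for clone 2. Pre-iPS cells thus held 18.5% of the mean iPS level of 4602 ± 1183 (SD, n = 6 libraries), and the log2 fold change was -2.39 ± 0.14 (limma adjusted p = 9.54e-06). Kit, the receptor of stem cell factor and a marker of germ cells, was 512 and 646, against 2318 and 2233 for control, 1294 and 1389 for clone 1 and 2354 and 3029 for clone 2, which is 27.5% of the iPS mean (-1.80 ± 0.15, limma adjusted p = 6.29e-05). Tfap2c, a transcription factor of trophoblast and primordial germ cells, was 865 and 581, against 2591 and 1549.8 for control, 1922 and 1327 for clone 1 and 2799.8 and 3301 for clone 2 (-1.59 ± 0.24, limma adjusted p = 0.00131). Zscan10, a zinc-finger factor of the embryonic stem cell network, was 985 and 895, against 3083 and 2344 for control, 2685 and 2085 for clone 1 and 3240.2 and 3368 for clone 2 (-1.55 ± 0.14, limma adjusted p = 7.45e-05). In MEF, where the rule required low values, the 4 genes were at 4.25 to 10.6. The pre-iPS and iPS libraries did not overlap for any of the 4. The 4 genes stayed lower under all 18 alternatives run, which include leaving out each pre-iPS or iPS library. Rec8, a meiotic cohesin subunit, was 1805 and 1126, against 2674 and 2281 for control, 2737 and 1558 for clone 1 and 3282 and 2519 for clone 2 (-0.78 ± 0.27, limma adjusted p = 0.046), and Camkv was lower by 0.53 on the log2 scale (adjusted p = 0.0493), both under the fold threshold. Beside these genes, the 7 trophoblast markers, Tfap2c included, summed to 2348 and 1629 for pre-iPS and to 1928 to 3847 in the iPS libraries. Tfap2c alone made up 865 and 581 of the pre-iPS sums and 1327 to 3301 of the iPS sums. These sums therefore do not show that the other trophoblast markers were lower in pre-iPS cells. Of the 7, 1 was higher and 2 were lower past both thresholds, Tfap2c among the lower. The 8 primitive endoderm markers summed to 8196 and 9772 for pre-iPS and to 12387 to 25986 in the iPS libraries. The part of these markers in the differences was not tested.

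**Figure D3:**
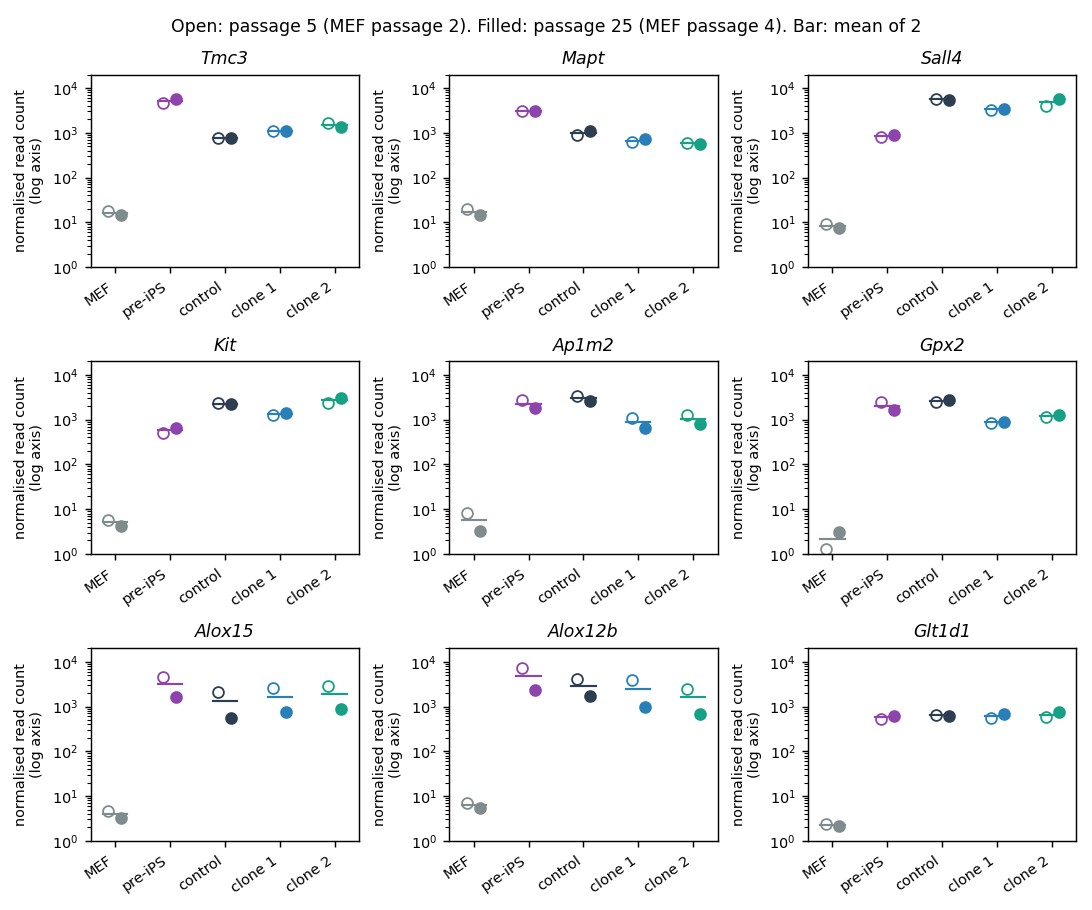
Normalised read counts (log axis) of 9 of the genes in each line, with open points for the earlier and filled points for the later passage and a bar for their mean. Tmc3 and Mapt are highest in pre-iPS cells, Sall4 and Kit are lowest there after MEF, Ap1m2 and Gpx2 are lower in clones 1 and 2 than in the control line, Alox15 and Alox12b fall from passage 5 to 25 in each of 4 lines, and Glt1d1 is level across the 8 libraries.

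At the other end, 25 of the 64 genes had a log2 fold change under 0.5 either way. The closest to 0 were Hsd17b14, a hydroxysteroid dehydrogenase, with 1973 and 2213 for pre-iPS, 2256 and 1991 for control, 1505 and 1863 for clone 1 and 2235 and 2742 for clone 2 (0.02 ± 0.16), Slc9b1, a sodium/proton exchanger, with 929 and 980.3 for pre-iPS, 787 and 786 for control, 925 and 1043 for clone 1 and 940.2 and 1047 for clone 2 (0.06 ± 0.12), and Serpinb3a, a protease inhibitor, with 2767 and 1807 for pre-iPS, 3123 and 3068 for control, 1731 and 2256 for clone 1 and 1955 and 1237 for clone 2 (0.08 ± 0.26). From the lowest to the highest of the 8 libraries Slc9b1 varied 1.33-fold and Hsd17b14 1.82-fold. The 2 pre-iPS values of Serpinb3a lay within the range of its iPS values, with the control line highest. Tjp3, a tight-junction scaffold, had a log2 fold change of -0.14 ± 0.34 and Glt1d1, a glycosyltransferase-like gene, of -0.14 ± 0.16. Glt1d1 was 535 and 625 for pre-iPS, 659 and 611 for control, 560.3 and 692 for clone 1 and 587 and 737 for clone 2, so its pre-iPS level overlapped the iPS level. None of these 5 passed the test, which does not show that their levels are equal. Their sign is not fixed either, since 4 of the 5 changed sign under another normalisation or without 1 library.

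Without regard to fold size, the pre-iPS libraries lay entirely above or entirely below the iPS libraries for 20 of the 64 genes (31.2%, against 41.8% of all genes). At an adjusted p under 0.05 alone 27 genes differed (39.6% of all genes did), 21 higher and 6 lower (18.7% and 20.8% of all genes). With passage as a block these numbers were 46 (47.8% of all genes), 39 and 7, and 20 genes passed the fold threshold as well (17.3% of all genes). The 4 gained were Klk11, 9130017N09Rik, Alox12b and Alox15 (limma adjusted p = 0.000159, 0.000241, 0.000758 and 0.000175), all of which also fell with passage.

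The rNetrin-1-derived clones were then compared with the control line, the question being whether lines derived with the recombinant protein carry these genes at another level. By limma 4 of 64 genes passed, all lower in the clones (6.25%, against 1.12% of all genes lower and 2.11% in either direction). Ap1m2, the epithelial subunit of a clathrin adaptor that sorts proteins to the basolateral membrane, was 3429.9 and 2661 for control, 1092 and 658 for clone 1 and 1270.5 and 783 for clone 2 (-1.72 ± 0.36, limma adjusted p = 0.0384). Gpx2, a glutathione peroxidase of intestinal epithelium, was 2533 and 2707 for control, 834 and 898 for clone 1 and 1132 and 1281 for clone 2 (-1.36 ± 0.24, limma adjusted p = 0.0214). In both genes all 4 clone libraries were below both control libraries, and pre-iPS cells, at 2759 and 1811 for Ap1m2 and 2421 and 1657 for Gpx2, were above all 4 clone libraries. Arhgef16 was 2051 and 1613 for control, 1033 and 677 for clone 1 and 837 and 636 for clone 2 (-1.22 ± 0.20, limma adjusted p = 0.0167), and Aim1l, a crystallin-domain gene, was lower by 1.14 on the log2 scale (adjusted p = 0.046).

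These 4 calls rest on a single control line. Without the passage 5 or the passage 25 library of the control line 0 of the 64 genes passed in limma, with 17 and 21 at an unadjusted p under 0.05 (15.5% and 13.5% of all genes). The spread then comes from the other lines, and the remaining control library is assumed to vary like them. The log2 fold changes of Ap1m2, Gpx2, Arhgef16 and Aim1l were -1.90 to -1.02 over all 18 alternatives. With all libraries, edgeR and DESeq2 each called 4 genes. Without 1 library of any other line but MEF, 2 or 3 genes passed. Of these single libraries, each of those of pre-iPS cells left Arhgef16 and Gpx2, and passage 5 of clone 2 left Arhgef16 and added Got1l1 as higher. At an adjusted p under 0.05 alone 8 genes differed, 6 lower and 2 higher (1.89% and 2.20% of all genes), and 26 did so with passage as a block (7.77% of all genes). The other 2 lower were Cd164l2 (-0.93 ± 0.20, limma adjusted p = 0.0385) and Prom2 (-0.72 ± 0.15, limma adjusted p = 0.0352), a prominin of plasma membrane protrusions, and the 2 higher were Slc28a1 (0.59 ± 0.12) and Tmc3 (0.77 ± 0.13). All 4 clone libraries were below both control libraries for 14 genes (21.9%, against 11.1% of all genes) and above for 9 (14.1%, against 10.3%). The 4 pluripotency and germ cell regulators had log2 differences of -0.50 ± 0.15 (Sall4), -0.27 ± 0.16 (Kit), 0.14 ± 0.26 (Tfap2c) and 0.06 ± 0.15 (Zscan10), with adjusted p-values of 0.122 to 0.896. With passage as a block Sall4 had an adjusted p under 0.05 (limma adjusted p = 0.0452), under the fold threshold.

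Between clones 1 and 2, 0 of the 64 genes passed both thresholds in limma (0.966% of all genes did), and 11 had an unadjusted p under 0.05 (16.6% of all genes did). DESeq2 called 2 genes, Kit and Got1l1, and edgeR called Kit. Kit was 1294 and 1389 in clone 1 and 2354 and 3029 in clone 2, a log2 difference of 0.99 ± 0.19 with a limma adjusted p of 0.0457, just short of the fold threshold. Got1l1 was 1199 and 1092 in clone 1 and 1705 and 3258 in clone 2 (1.04 ± 0.28, adjusted p = 0.123). Got1l1 lies on chromosome 8, whose 591 expressed genes had a median of 0.09 and 0.14 (log2, relative to each gene's median library) in clone 2 at passages 5 and 25, and of -0.04 to 0.01 in the 6 other libraries. Its part in the Got1l1 difference was not tested. With passage as a block 2 other genes passed (1.92% of all genes did), both lower in clone 2. They were Asprv1, with 10674 and 5955 in clone 1 and 4377 and 1866 in clone 2 (-1.48 ± 0.55, adjusted p = 0.0122 with the block and 0.231 without), and Mal, with 10952 and 4400.4 and 4309 and 2159.6 (-1.19 ± 0.53, adjusted p = 0.0131 and 0.309). At an adjusted p under 0.05 alone the block raised the number from 1 (1.59% of all genes) to 12 (3.65% of all genes).

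Passages 25 and 5 of the 4 reprogrammed lines were then compared, with the line as a block. In each line the passage 5 library was replicate 1 and the passage 25 library replicate 2. Long culture and a difference between the 2 sets of replicates therefore cannot be told apart. Many of the 64 genes were lower at passage 25, in pre-iPS as in iPS lines. By limma 5 genes passed both thresholds, all lower at passage 25 (7.81%, against 1.29% of all genes and 0.329% of the 8807 genes of at least 500). At an adjusted p under 0.05 alone 28 genes were lower (43.8%, against 7.63% of all genes and 9.21% of the 8807) and 1, Sh3gl2, was higher (1.56%, against 3.31% of all genes). The value at passage 25 was below that at passage 5 in each of the 4 lines for 33 of the 64 genes (51.6%), against 20.9% of all genes and 25.5% of the 8807. On the log2 scale the median difference over the 64 genes was -0.27 (pre-iPS), -0.28 (control), -0.29 (clone 1) and -0.27 (clone 2), and over all genes it was -0.03 to -0.01.

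**Figure D4:**
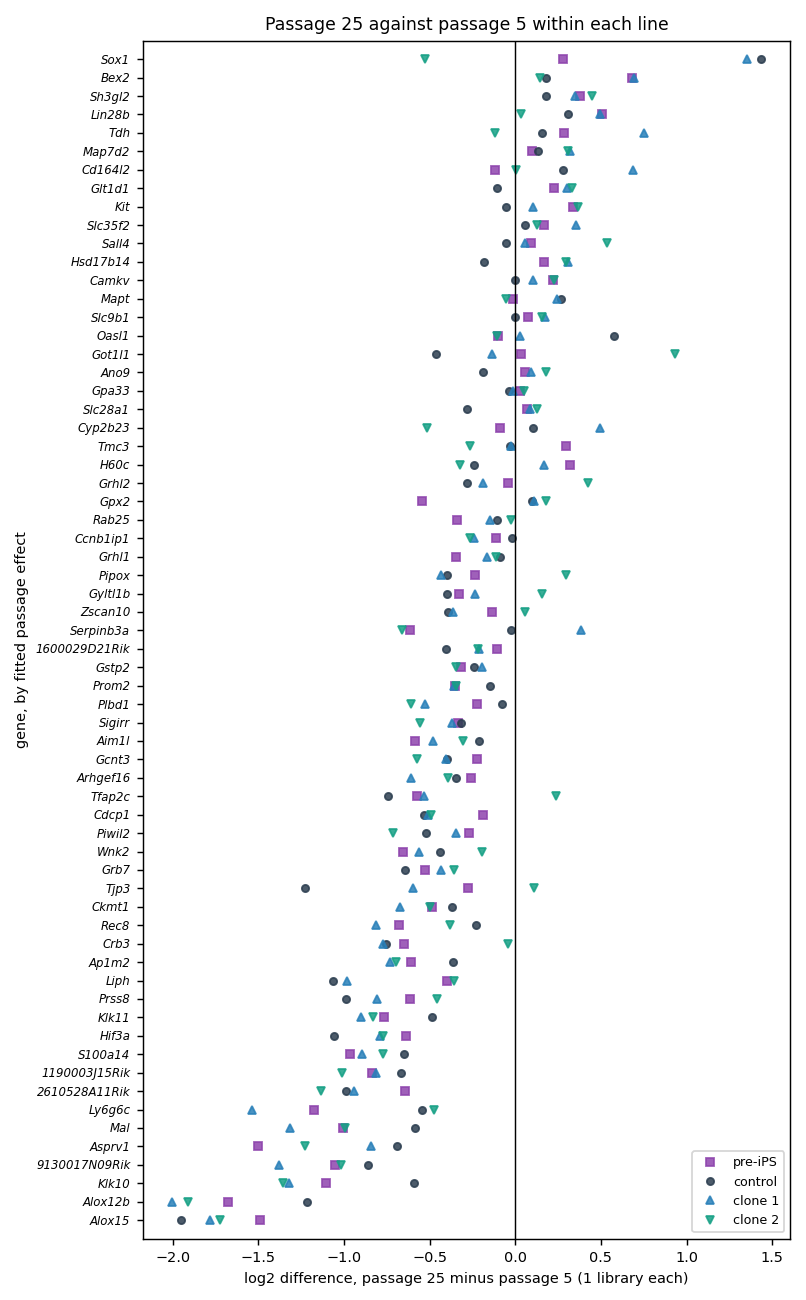
Log2 difference between passage 25 and passage 5 (x axis, 1 library each) in pre-iPS cells, the control line, clone 1 and clone 2 (symbols) for each of the 64 genes (y axis, ordered by the fitted passage effect). Alox15 and Alox12b at the bottom are below -1 in all 4 lines, and 33 genes have all 4 symbols left of 0.

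The largest falls were those of the lipoxygenase genes Alox15 and Alox12b. Alox15, an arachidonate lipoxygenase, was 4595 and 1636 for pre-iPS, 2153 and 555 for control, 2581 and 749 for clone 1 and 2925 and 886 for clone 2. It was lower at passage 25 in every line, by -1.49, -1.95, -1.78 and -1.72 on the log2 scale in that order, and the fitted difference was -1.74 ± 0.08 (SE, limma adjusted p = 0.000268). Alox12b was 7390.1 and 2313 for pre-iPS, 4085 and 1757 for control, 3999 and 998 for clone 1 and 2524 and 670.3 for clone 2 (-1.70 ± 0.12, limma adjusted p = 0.00115). Both genes lie on chromosome 11, and in both the pre-iPS line had the highest value at each passage.

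Klk10, a kallikrein-related peptidase, was 4283 and 1989 for pre-iPS, 1851 and 1226 for control, 4879 and 1954 for clone 1 and 2565 and 1000.0 for clone 2 (-1.09 ± 0.12, limma adjusted p = 0.00433), and its neighbour Klk11 differed by -0.75 ± 0.08 (limma adjusted p = 0.00442). 9130017N09Rik (Misp), an actin-binding protein of the spindle and cell cortex, had -1.08 ± 0.09 (limma adjusted p = 0.0017) and Asprv1 -1.07 ± 0.13 (limma adjusted p = 0.00511). The 2 peptidase genes are neighbours and moved the same way in every line. Just short of the fold threshold lay Mal, with 7934 and 3947 for pre-iPS, 4088 and 2721 for control, 10952 and 4400.4 for clone 1 and 4309 and 2159.6 for clone 2 (-0.98 ± 0.11, limma adjusted p = 0.00397), Ly6g6c (-0.93 ± 0.17), 2610528A11Rik (-0.93 ± 0.08) and S100a14 (-0.82 ± 0.06), each lower at passage 25 in 4 of 4 lines. The polarity and junction genes Ap1m2 (-0.60 ± 0.08, limma adjusted p = 0.0059), Prss8 (-0.72 ± 0.10, limma adjusted p = 0.00732), a membrane-anchored serine protease, and Crb3 (-0.56 ± 0.13, limma adjusted p = 0.0386), a Crumbs polarity protein, also fell. Rab25 (-0.16 ± 0.06, adjusted p = 0.155), Tjp3 (-0.50 ± 0.19, adjusted p = 0.14) and Grhl2 (-0.02 ± 0.11, adjusted p = 0.91), a transcription factor of epithelia, did not pass. Hif3a was 3138 and 2013 for pre-iPS, 1759.9 and 846 for control, 2047 and 1181 for clone 1 and 1945 and 1136 for clone 2 (-0.82 ± 0.08, limma adjusted p = 0.00258).

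Other genes fell at an adjusted p under 0.05 without reaching the fold threshold. Piwil2, an Argonaute-family protein of the piRNA pathway, had -0.46 ± 0.08 (limma adjusted p = 0.0185), Rec8 -0.53 ± 0.10 (limma adjusted p = 0.0214) and Grb7, an adaptor of receptor tyrosine kinases, -0.49 ± 0.06 (limma adjusted p = 0.00567). The regulators that were lower in pre-iPS cells did not pass for passage, with fitted differences of 0.16 ± 0.10 for Sall4, 0.19 ± 0.08 for Kit, -0.21 ± 0.08 for Zscan10 and -0.40 ± 0.15 for Tfap2c. In 5 genes the passage 25 value was the higher in all 4 lines (7.81%, against 15.1% of all genes). These were Sh3gl2 (0.34 ± 0.07, limma adjusted p = 0.0324), Bex2 (0.42 ± 0.12, adjusted p = 0.0606), Lin28b (0.34 ± 0.09, adjusted p = 0.0533), an RNA-binding inhibitor of let-7 maturation, Slc35f2 (0.18 ± 0.06) and Map7d2 (0.21 ± 0.08), a microtubule-associated protein. Bex2 and Map7d2 are the X-linked genes of the 64. Bex2 was 565 and 905 for pre-iPS, 819 and 927 for control, 648 and 1049 for clone 1 and 981 and 1085 for clone 2, with the lowest values in pre-iPS cells and clone 1 at passage 5.

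The passage differences of the lines resembled each other. Across the 64 genes the correlation of the differences between any 2 lines was 0.495 to 0.865 (Pearson, 6 pairs of lines), and across all genes it was 0.235 to 0.504, where the points share the libraries and genes are not independent. The line as a block decided the calls, and with the line left out of the fit 0 of the 64 genes passed, with 13 at an unadjusted p under 0.05 (10.04% of all genes). In that fit 6 of all genes passed. Of the 28 genes lower at passage 25 by adjusted p, 10 were also higher in pre-iPS cells by adjusted p, namely 2610528A11Rik, Aim1l, Arhgef16, Ckmt1, Gcnt3, Gstp2, Ly6g6c, Prom2, Sigirr and Wnk2. Over all 64 genes 21 were higher in pre-iPS cells by adjusted p (32.8%, against 18.7% of all genes tested). A link between the passage and the pre-iPS differences was not tested. Macrophage marker sums were 1130.4 to 1899 at passage 5 and 566 to 1107 at passage 25, lower in each line, with Cd68 and Csf1r passing the test (-1.07 ± 0.12 and -1.48 ± 0.18). Fibroblast marker sums fell in pre-iPS cells and in clones 1 and 2 and rose in the control line. The part of these markers in the passage differences was not tested.

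Measured against lists of related genes, the 64 held 2 of 30 pluripotency transcription factors, Sall4 and Zscan10. Of the 30, 20 were lower in pre-iPS than in iPS cells and 3 higher (Pou5f1, Klf4 and Nr0b1), with a median log2 fold change of -1.51, where 11.6% of all genes were lower. For Pou5f1 and Klf4, both delivered by retrovirus, reads of the viral and of the endogenous gene cannot be told apart. Of 22 germline genes 16 were lower and 1 higher, with a median of -3.64, and the 3 among the 64 were Kit (lower), Rec8 and Piwil2 (0.66 ± 0.29, adjusted p = 0.104, and 0.00134 with passage as a block). Among the other germline genes, Dazl (3.06 and 0.957 for pre-iPS, log2 fold change -8.12 ± 0.67) and Mael (3.06 and 1.92, -7.35 ± 0.37) stayed far under the pre-iPS level that the rule demands. Of 34 epithelial adhesion and polarity genes tested 1 was higher, Itgb4, an integrin of hemidesmosomes (1.58 ± 0.39, limma adjusted p = 0.0122), and 0 were lower, with a median of 0.29. The 6 of that list among the 64 were Ap1m2, Crb3, Grhl2, Prss8, Rab25 and Tjp3, and their log2 fold changes were -0.59 to 0.71.

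For passage, 4 of the 34 epithelial genes fell past both thresholds. Among them were the keratins Krt8 (-1.52 ± 0.12), Krt18 (-1.38 ± 0.09) and Krt19 (-1.96 ± 0.06), and the median of the list was -0.50. None of the 30 pluripotency factors fell past both thresholds and 1 rose, with a median of -0.17. In the clones against the control line 1 epithelial gene was lower, Ap1m2, with a median of -0.32 for the list.

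In the remaining lists, few of the 64 genes were present. Lin28b was among 14 RNA-binding and splicing regulators, of which 4 were lower in pre-iPS cells (Lin28a, Trim71, Igf2bp1 and Rbpms2) and 0 higher. Lin28b was 1305 and 1853 for pre-iPS, 1661 and 2052 for control, 1746 and 2465 for clone 1 and 1560.1 and 1597 for clone 2 (-0.23 ± 0.18, adjusted p = 0.353), whereas its paralog Lin28a was 55.1 and 49.9 for pre-iPS, against 9516 and 9421 for control, 6033 and 6193 for clone 1 and 4809 and 7000.4 for clone 2 (-7.02 ± 0.30, limma adjusted p = 3.06e-06). The difference between the paralogs was not tested. Tdh was among 17 one-carbon and amino acid metabolism genes tested, of which 1 was lower, Gldc (-1.93 ± 0.26), and 0 higher. Tdh was 4744 and 5782 for pre-iPS, 2895 and 3220.5 for control, 3625 and 6109 for clone 1 and 6006 and 5539.7 for clone 2 (0.26 ± 0.19, adjusted p = 0.293), with the control line lowest. Sox1 was among 17 neural genes tested, of which 5 were lower and 1, Nefl, higher, and Kit among 15 FGF and MAPK signalling genes, of which 5 were lower. The lists without any of the 64 genes were Nodal and TGF-beta (8 of 16 lower), DNA methylation (5 of 15 lower), cell surface glycoproteins (2 of 14 lower and 1 higher) and telomerase (0 of 9 either way).

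Some of the counts can include reads of other genes, or lack reads of their own that were set aside as shared. Of the 50-base stretches of its transcripts, Gstp2 shares 54.3% with other genes, chiefly Gstp1, Bex2 22.2% with Bex3 and Bex1, Serpinb3a 15.0% with Serpinb3b and others, Tdh 10.2% and Ccnb1ip1 10.0%. Exon overlap with another gene exceeded 10% for 1190003J15Rik, 1600029D21Rik, Ccnb1ip1, Cd164l2 and Tmc3. For these 9 genes the level is uncertain to that extent.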

How the data were processed

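Poly(A) RNA of 10 libraries was sequenced as single reads after preparation with a kit that does not keep strand. Per the labels' processing notes the authors used CASAVA 1.8.2, FastQC, TopHat2 2.0.8b, HTSeq 0.5.3p9 and edgeR with mm10. The annotation and the strand setting of the counting are not given in the sources used here. The authors deposited a normalised signal, edgeR pseudo-counts of 18901 genes at a common library size, so these values are not raw counts. They were inverted to whole reads, which came out whole (within 0.1 read) for 100% of values in every library, with at least 10 reads per gene over all libraries.

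The 17075 genes that reached a value of 10 in 2 libraries or more were tested, all 64 described genes among them. limma 3.58.1 (R 4.3.3, eBayes with trend) was fitted to log2(value + 1) with the 5 lines as groups, and p-values were adjusted over all genes tested by Benjamini-Hochberg. Fold changes are on that log2(value + 1) scale. A gene passed where its adjusted p was under 0.05 and its log2 fold change was 1 or more either way. The MEF pair, with 1 to 18 reads per library for the 64 genes, entered the SE of the contrasts between the other lines. For Gpa33 this SE was 0.21, and 0.054 in a fit over the 8 other libraries with passage as a block. Without MEF and without that block, 17 of the 64 genes passed between pre-iPS and iPS cells (15.7% of all genes). Between the clones and the control line 4 passed (1.45% of all genes). Passages were compared over 8 libraries with line as a block. The fit was tested on simulated counts in which only pre-iPS levels were changed and no passage effect was present. It does not show how the fit behaves where libraries share a passage effect.

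The passage numbers given by the labels were checked as pairs. The deviations of same-passage libraries from their line means correlated at 0.235 to 0.504 over the 6 pairs of lines, so they pair the libraries, and passage as a replicate block was an alternative. Other alternatives were pseudocounts of 0.5 and 5, no filter, a mean of at least 50, the adjusted p alone, quantile and median-ratio scaling, a fit over 8 libraries, line left out, and each of the 8 pre-iPS and iPS libraries left out. Tests of the recovered reads by edgeR 4.0.16 (TMM, quasi-likelihood) and DESeq2 1.42.0 were chosen after the data had been seen. For pre-iPS against iPS cells edgeR called 2712 of all genes, for the clones against the control line 387, for clone 2 against clone 1 193, and for passage 320.

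The members and gene lists were chosen with earlier results of these data known. Named genes were the 8 highest and 8 lowest passing genes and the 5 nearest 0 between pre-iPS and iPS cells, the 8 highest per kilobase, members of the lists, the 3 largest passing changes of each direction in the other comparisons, genes at the edges of the rule and X-linked genes. All other genes of the 64 named, among them Got1l1, Gpa33, Hif3a and 9130017N09Rik, were named after their values were seen. GENCODE M21 (GRCm38, the assembly that mm10 names) gave positions and exon lengths for 98.9% of symbols. A gene of the epithelial list that is counted there is not reported here by name.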

Additional observations from a re-analysis of the deposited data

Results flagged for a closer look

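Kit was the 1 gene of the 64 whose level differed between the 2 rNetrin-1-derived clones at an adjusted p under 0.05 (1.56% of the 64, against 1.59% of all genes tested). Its log2 difference between clone 2 and clone 1 was 0.99 (limma adjusted p = 0.0457), with both clone 2 libraries above both clone 1 libraries. The result is listed because lines derived in the same way differed by a direct test. The difference was 0.81 to 1.18 over 18 alternatives, with adjusted p-values of 6.18e-06 to 0.278.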

How the results depend on the processing

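For 41 named genes, 738 log2 fold changes of pre-iPS against iPS cells were computed under alternatives, of which 702 kept their direction and side of the threshold, 14 no longer passed, 9 newly passed and 13 changed sign. The genes that changed sign had not passed the test. Under quantile normalisation they were Hsd17b14 (-0.0444) and Slc9b1 (-0.00293). With a library left out the value was -0.0647 to 0.101 for Hsd17b14, -0.230 to 0.385 for Serpinb3a, -0.347 to 0.0623 for Tjp3, -0.961 to 0.543 for Asprv1, -0.0666 to 0.940 for Mal, -0.481 to 0.0247 for Lin28b and -0.678 to 0.000594 for Bex2. The cause was not tested.

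Dropping the fold threshold raised the genes that passed from 16 to 27 between pre-iPS and iPS cells, from 4 to 8 between the clones and the control line, from 0 to 1 between the clones, and from 5 to 29 between passages. With a library left out these counts were 13 to 18, 0 to 3, 0 to 2 and 4 to 7. Between the clones, quantile normalisation and edgeR gave 1, DESeq2 gave 2 and passage as a replicate block gave 2. Passage without the line as a block gave 0. With passage as a block 20 genes passed both thresholds between pre-iPS and iPS cells and 4 between the clones and the control line. Each line has 2 libraries, and pre-iPS and control cells are 1 line each. Depth limits the MEF levels, which rest on 1 to 18 reads.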
